A study of Mus musculus with 6 samples.

Results

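The 9 lymphocyte receptors that sense lipids and were followed here in stimulated mouse CD8 T cells were Gpr174, P2ry10, Gpr183, Gpr132, Gpr18, S1pr1, S1pr4, Ptger2 and Ptger4. They are 9 of the 49492 gene rows in the count table and 9 of the 15186 genes with enough reads to be tested for genotype, so none was lost to the filter on low counts. They were chosen by symbol and receptor family with the genotype values of these same libraries already known. The difference between genotypes is therefore given for them as a description. The tools' calls for them are printed once, beside those over all genes, and support nothing here. All samples were labelled as naive CD8 T cells of the spleen, taken from OT-I mice, which carry a transgenic T cell receptor. The mice were 6 to 8 weeks old and of C57/BL6 background. Wild type OT-I mice gave 3 libraries (WT) and NIK-CD4Cre-OT-I mice gave the other 3 (KO). In the latter, a Cre recombinase under Cd4 control is meant to remove Map3k14, the gene of the kinase NIK, from the stage at which thymocytes switch on Cd4, and cells that never use Cd4 keep the gene. All cells, of both genotypes, were held for 24 hours on plate-bound anti-CD3 (1 µg/ml) with soluble anti-CD28 (1 µg/ml), and unstimulated cells are not analysed here. Whether the libraries stand for separate mice is not stated, so the errors measure the spread between libraries. Values are given in the order WT replicates 1, 2 and 3, then KO replicates 4, 5 and 6.

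These receptors belong to the G protein-coupled family, in which a ligand outside the cell changes the activity of a G protein inside it. Gpr174 and P2ry10 are receptors for lysophosphatidylserine, S1pr1 and S1pr4 for sphingosine phosphate, Gpr183 for oxysterols and Ptger2 and Ptger4 for prostaglandin E2. Gpr132 is a relative of the proton-sensing receptors that also responds to lysophospholipids and oxidised fatty acids, and the ligand of Gpr18 is debated. In T cells S1pr1 drives exit from lymphoid organs and is shut down after stimulation, whereas Gpr174, Ptger2 and Ptger4 couple to the G protein that raises cyclic AMP, a signal that restrains T cells. S1pr1 transcription depends on Klf2, a factor of resting T cells.

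Library totals ran from 41311346 to 47851445 counts, where 3 counts equal 0.0627 to 0.0722 CPM (counts relative to the TMM-adjusted library total). The CD8 T cell list was detected in full, with 10 of 10 genes and a summed level of 2524 to 2708 CPM in the WT libraries and 2627 to 2772 CPM in the KO libraries. The 12 B cell genes summed to 29.9 to 99.4 CPM in WT and 36.9 to 51.0 CPM in KO libraries, highest in WT replicate 2. The 19 myeloid genes summed to 38.9 to 61.3 CPM in WT and 38.6 to 90.7 CPM in KO libraries, highest in KO replicates 6 and 4, and the 10 genes of other T cells and NK cells to 70.1 to 94.2 CPM and 58.0 to 83.8 CPM. None of these markers was at 0 in all 6 libraries. The median log2 fold of the KO over the WT libraries was -0.73 for the 12 tested B cell genes, 0.94 for the 13 tested myeloid genes and -0.46 for the 7 tested genes of other T cells and NK cells, and edgeR called 0 of each. Map3k14 itself was at 53.6, 65.5 and 65.3 CPM in the WT and 50.7, 64.5 and 54.7 CPM in the KO libraries. Its groups overlapped. The deleted exons are not named in the labels, and reads from the rest of the gene would still count, so the total does not check the genotype. Each group mixed male and female mice: Xist, made from the inactive X chromosome, was at 1964 to 2069 CPM in WT replicates 1 and 3 and KO replicate 6 and at 0.482 to 0.864 CPM in the others.

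Gpr174 and P2ry10 lie on the X chromosome in the same orientation, with 150.9 kb between them (GRCm38, GENCODE M21). P2ry10 spans 107088492 to 107104974 and Gpr174 spans 107255878 to 107296769, both on the plus strand. A relative of P2ry10, listed in the count table as A630033H20Rik and in the annotation as P2ry10b, sits between them, 44.0 kb from P2ry10 and 82.2 kb from Gpr174. Gpr18 (121911253 to 121915781) and Gpr183 (121952551 to 121965195) are neighbours on chromosome 14, both on the minus strand and 36.8 kb apart, inside the span of Ubac2 on the other strand, with which they share 0 exon bases. Ptger2 is also on chromosome 14 (44988195 to 45003820, plus strand), S1pr1 on chromosome 3 (115710433 to 115715072, minus strand), S1pr4 on chromosome 10 (81497747 to 81500132, minus strand), Gpr132 on chromosome 12 (112850873 to 112868228, minus strand) and Ptger4 on chromosome 15 (5206661 to 5244187, minus strand). Annotated exons on the opposite strand overlap 15.3% of the exon bases of Ptger4 (the pseudogene Gm15937) and 1.2% (the protein-coding gene Ttc33). For Ptger2 the shares are 4.7% (the antisense gene Gm17173) and 2.8% (the processed transcript Gm49364). No source used here gives the strand setting of the counting, so reads there cannot be told apart.

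The bases before the start sites of 4 members are shown, from RefSeq on GRCm38.p6 and read 5′ to 3′ on the strand of the gene. Gpr174 and P2ry10 are shown as X-linked neighbours with the highest genotype folds, Gpr132 because it alone held a kB match, and Ptger4 because it ran opposite to S1pr1 between libraries. Capitals mark any match, on either strand, to the letters searched: the NF-kB motif (kB), TGANTCA (AP-1), GTAAACA (FOXO), CACCC (KLF), ACTTCC (ETS) and TGACG (CRE, from the cyclic AMP response element). In Gpr132, 36 bases that are exon in the annotation were left out.
Gpr174, chrX:107284096-107284345, plus strand: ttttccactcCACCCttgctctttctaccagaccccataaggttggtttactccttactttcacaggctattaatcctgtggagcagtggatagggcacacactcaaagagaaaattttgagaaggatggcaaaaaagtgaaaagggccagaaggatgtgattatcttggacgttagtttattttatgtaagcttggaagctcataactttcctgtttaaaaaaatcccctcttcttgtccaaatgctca
P2ry10, chrX:107088242-107088491, plus strand: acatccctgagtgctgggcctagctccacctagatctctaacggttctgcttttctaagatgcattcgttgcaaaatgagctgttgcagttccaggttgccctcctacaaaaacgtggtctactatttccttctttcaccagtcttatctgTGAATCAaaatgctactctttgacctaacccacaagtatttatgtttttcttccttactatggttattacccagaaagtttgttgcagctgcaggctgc
Gpr132, chr12:112860953-112861166, minus strand: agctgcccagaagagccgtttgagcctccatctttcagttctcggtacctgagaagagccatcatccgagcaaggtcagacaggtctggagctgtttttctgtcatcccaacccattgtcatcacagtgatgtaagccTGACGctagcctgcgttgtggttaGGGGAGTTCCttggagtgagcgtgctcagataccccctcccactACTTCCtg
Ptger4, chr15:5244188-5244437, minus strand: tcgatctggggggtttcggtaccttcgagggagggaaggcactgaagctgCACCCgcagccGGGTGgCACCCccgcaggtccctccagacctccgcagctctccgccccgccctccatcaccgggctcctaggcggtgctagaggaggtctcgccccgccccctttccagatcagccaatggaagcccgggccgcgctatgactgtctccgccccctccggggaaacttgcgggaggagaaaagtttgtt

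RefSeq gave 9 such windows of 250 bases for 8 of the members. The kB match of Gpr132 begins 88 bases before the RefSeq start site used here, and 7.3% of 32851 windows of the same length in the RefSeq set hold one. Gpr174 and S1pr4 held 1 KLF match each and Ptger4 held 3, where 52.0% of all windows hold at least 1. Gpr132 also held 1 KLF match, within the exon bases left out of its printed sequence. P2ry10 held 1 AP-1 match in this window (6.7% of all windows), and its second start site had 1 ETS and 1 CRE match in place of it. The Ptger4 window was 66.8% G and C, against 32.0% to 55.6% in the other windows. The Gpr174 window, the Gpr132 window and the second P2ry10 window each belong to a start inside the gene. Other annotated transcripts of these genes begin upstream of those starts. In the second P2ry10 window 99 bases are exon in the annotation. No match says only that these letters are not in these windows.

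**Figure D1:**
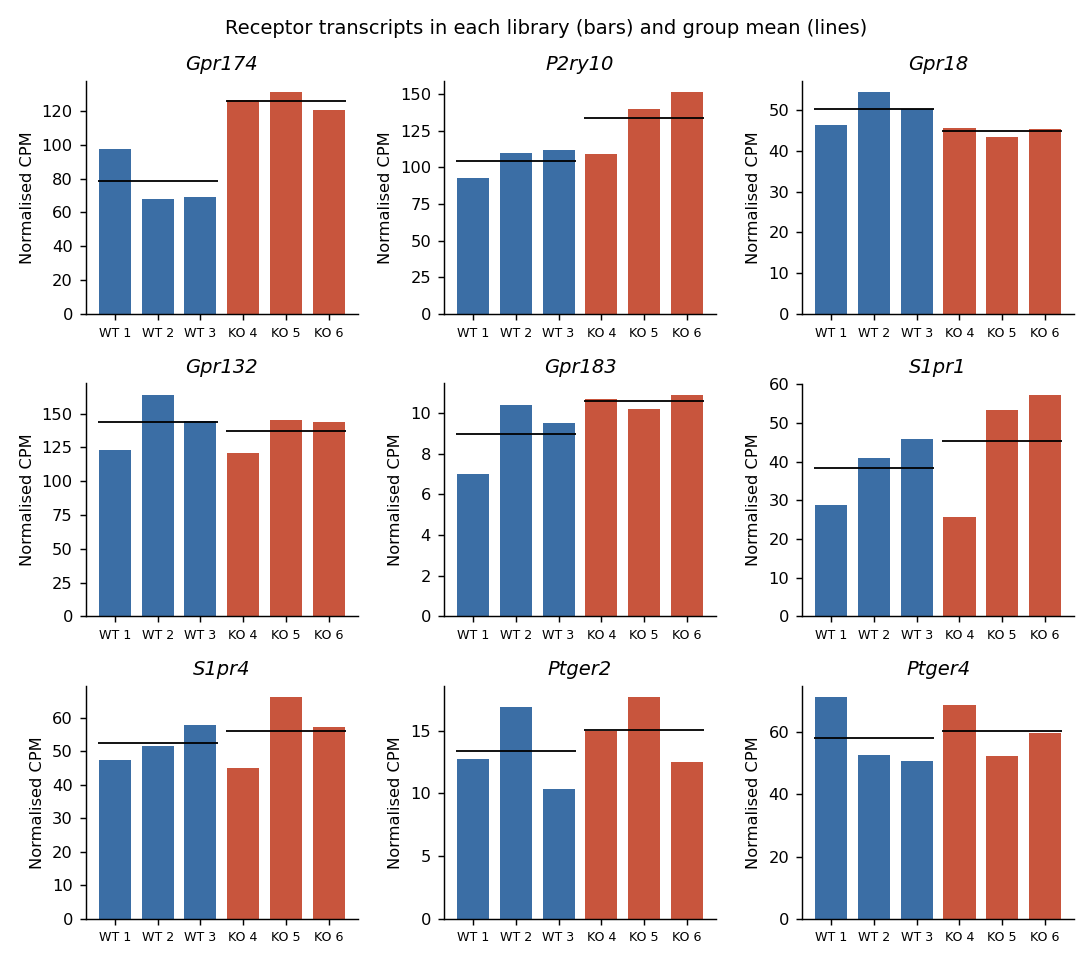
Normalised CPM (y axes, each from 0) of the 9 receptors in the 3 WT (blue) and 3 KO (red) libraries, with the mean of each group as a line. The Gpr174 bars of the KO libraries all stand above the WT bars, and S1pr1 is lowest in WT replicate 1 and KO replicate 4.

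Gpr174 had the highest genotype fold of the 9. Its level was 97.7, 68.1 and 69.1 CPM in the WT and 126, 131 and 121 CPM in the KO libraries. Every KO library lay above every WT library, and WT replicate 1 stood nearest to the KO libraries. The means were 78.3 CPM ± 16.8 and 126 CPM ± 5.23 (WT and KO, SD, n = 3 each), a 1.61-fold higher level in the KO libraries and a log2 fold of 0.69 (SE 0.14). Its counts ran from 3112 to 6044, and the within-genotype SD was 0.21 log2 units. Without WT replicate 1 the log2 fold was 0.88, and without WT replicate 2 it was 0.60, the extremes with 1 library left out. Both sexes were in each group: the libraries with high Xist read 97.7 and 69.1 (WT) and 121 CPM (KO), and those with low Xist read 68.1 (WT) and 126 and 131 CPM (KO). With a term for sex the log2 fold was 0.72.

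P2ry10, the other receptor for lysophosphatidylserine, read 92.5, 109.8 and 112 CPM in the WT libraries and 109, 139.9 and 151 CPM in the KO libraries. KO replicate 4 lay within the WT range, so the groups overlapped. The fold was 1.28 and its log2 value 0.35 (SE 0.13), from 0.25 without KO replicate 6 to 0.48 without KO replicate 4. A630033H20Rik, between the X-linked members, read 8.62, 10.3 and 7.10 CPM in WT and 7.76, 10.3 and 8.88 CPM in KO libraries, with overlapping groups. Its log2 fold was 0.05 (SE 0.16, edgeR adjusted p = 0.95). How reads that match both P2ry10 and this relative were counted is not stated.

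Gpr18 was lower in the KO libraries by a small margin. It read 46.4, 54.4 and 50.4 CPM in the WT and 45.6, 43.5 and 45.3 CPM in the KO libraries. The groups did not overlap, but WT replicate 1 stood only just above the KO libraries. The log2 fold was -0.17 (SE 0.07), a ratio of 0.889, and ranged from -0.23 without WT replicate 1 to -0.11 without WT replicate 2. WT replicates 2 and 3, the highest for Gpr18, also had the highest sums of the B cell list, 99.4 and 62.9 CPM against 29.9 to 51.0 CPM in the other libraries. B cells also express Gpr18, and the part of these cells in the result was not tested. In RNA from whole samples, fewer cells of a type and less RNA per cell cannot be told apart. Its neighbour Gpr183, which guides lymphocytes along oxysterol gradients, was far less abundant and read 6.99, 10.4 and 9.52 CPM in WT against 10.7, 10.2 and 10.9 CPM in KO libraries. WT replicate 1 was low and the other 5 libraries lay close together. The log2 fold was 0.24 (SE 0.15), and it was 0.09 without WT replicate 1 and 0.36 without WT replicate 2.

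Gpr132 read 123, 164 and 145 CPM in WT and 121, 145 and 144 CPM in KO libraries. The lowest values were in KO replicate 4 and WT replicate 1 and the highest in WT replicate 2. The log2 fold was -0.07 (SE 0.12). It was -0.18 without WT replicate 1, and it turned positive without WT replicate 2 (0.03) and without KO replicate 4.

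The sphingosine phosphate receptors differed more within the genotypes than between them. S1pr1 was at 28.7, 40.8 and 45.7 CPM in the WT and 25.8, 53.3 and 57.3 CPM in the KO libraries. WT replicate 1 and KO replicate 4 were the lowest libraries, 1 of each genotype, and the highest library was 2.23 times the lowest. The log2 fold was 0.24 (SE 0.31), and it ranged from 0.04 without KO replicate 6 to 0.52 without KO replicate 4. S1pr1 had a within-genotype SD of 0.51 log2 units, above that of 98.6% of the 9649 genes that averaged 5 CPM or more. Gpr18, in contrast, had an SD of 0.09, near the middle of those genes (49.1% were lower), and the other 7 members lay between 0.18 and 0.31. S1pr4, a receptor mostly of blood cells, read 47.4, 51.6 and 57.9 CPM in WT and 45.0, 66.1 and 57.2 CPM in KO libraries. The lowest values were again in KO replicate 4 and WT replicate 1. Its log2 fold was 0.10 (SE 0.14) and turned to -0.03 without KO replicate 5, with 0.24 without KO replicate 4.

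The prostaglandin E2 receptors had overlapping groups. Ptger4 was at 71.3, 52.6 and 50.7 CPM in the WT and 68.8, 52.5 and 59.8 CPM in the KO libraries. Its highest libraries were WT replicate 1 and KO replicate 4, the reverse of S1pr1. The log2 fold was 0.05 (SE 0.15), and it was negative in 3 of the 6 fits with 1 library left out (lowest -0.05, highest 0.22). Ptger2 read 12.8, 16.9 and 10.4 CPM in WT and 15.0, 17.7 and 12.5 CPM in KO libraries, with the lowest value in WT replicate 3 and the highest in KO replicate 5. Its log2 fold was 0.17 (SE 0.20), from 0.02 without WT replicate 3 to 0.38 without WT replicate 2, and 0.03 with a term for sex.

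**Figure D2:**
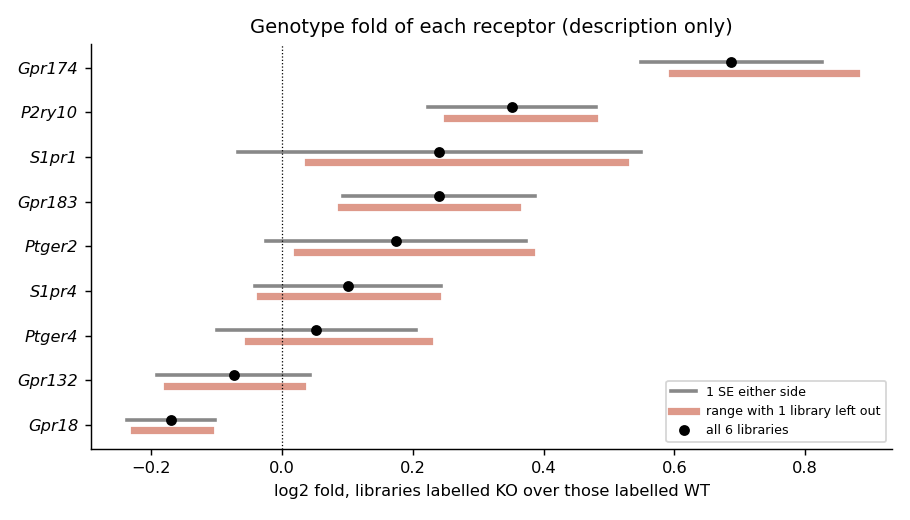
Log2 fold of the KO over the WT libraries (x axis) for each receptor (y axis), with 1 SE either side in grey and the range of the fold with 1 library left out in red. Gpr174 lies highest at 0.69, and Gpr132, S1pr4 and Ptger4 have ranges on both sides of 0.

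Of the 9 receptors edgeR called 0 at an adjusted p under 0.05, where it called 1 of all 15186 genes (0.00659%). At an unadjusted p under 0.05 there were 3 (Gpr174 and P2ry10 higher, Gpr18 lower), where 7.26% of all genes pass. DESeq2 called 1, Gpr174, where it called 0.598% of 14883 genes. EdgeR also called Gpr174 when WT replicate 1 was left out, in a fit that called 119 of 15584 genes. It did not call Gpr174 in any other fit with 1 library left out. Groups did not overlap for 1 member higher in KO (6.68% of all genes) and 1 lower (6.07%), or 2 in all (12.8% of all genes). Since the members were chosen with this contrast known, nothing is read from these counts. The median log2 fold was 0.17 over the 9 members and 0.01 over all tested genes.

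Per length of transcript, the receptors spanned a wide range. Levels are CPM per kilobase of annotated exon, as the mean over all 6 libraries. Gpr132 was highest at 51.7 ± 5.91 (SD, n = 6 libraries of both genotypes), then P2ry10 at 39.9 ± 7.37, Gpr18 at 31.8 ± 2.70 and S1pr4 at 22.7 ± 3.25. Gpr174 followed at 18.9 ± 5.26 and S1pr1 at 13.8 ± 4.20. The lowest were Ptger4 at 8.91 ± 1.34, Gpr183 at 3.39 ± 0.500 and Ptger2 at 2.74 ± 0.542. Gpr174 came after only Gpr132 and P2ry10 in CPM but after 4 members per length, since its exons add up to 5402 bases.

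Neighbours in this order were compared within libraries with an exact two-sided sign-flip permutation test, for which 6 libraries cannot give a p under 0.031. The pairs were themselves taken from the mean levels of these 6 libraries, which hold both genotypes. The p values therefore only describe how steady the order was in these libraries. For 4 of the 8 neighbouring pairs the order held in 6 of 6 libraries (exact p = 0.031, adjusted over the pairs 0.063): Gpr132 over P2ry10 (1.30-fold), P2ry10 over Gpr18 (1.24-fold), Gpr18 over S1pr4 (1.41-fold) and Ptger4 over Gpr183 (2.64-fold). None passed 0.05 after adjustment. S1pr4 and Gpr174 (exact p = 0.22, the order held in 5 of 6 libraries), Gpr174 and S1pr1 (exact p = 0.16, 4 of 6), S1pr1 and Ptger4 (exact p = 0.13, 4 of 6) and Gpr183 and Ptger2 (exact p = 0.063, 5 of 6) changed order in at least 1 library. The place of Ptger4 and Ptger2 also depended on the gene model. Over the longest annotated transcript in place of all exons Ptger4 stood at 15.7, above S1pr1, and Ptger2 at 3.86, above Gpr183.

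**Figure D3:**
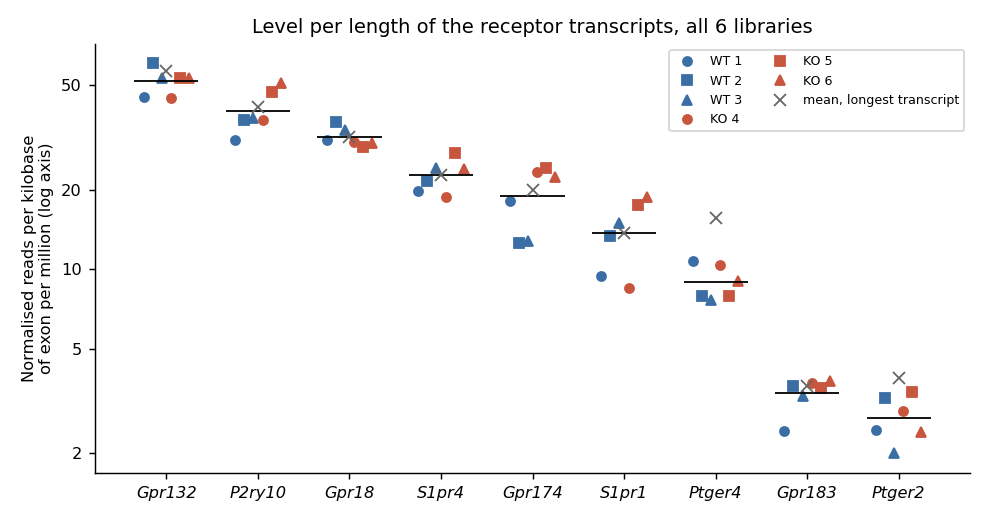
Level of each receptor per kilobase of exon (log y axis) in the 6 libraries (blue WT, red KO, 1 symbol per library), with the mean as a line and the mean over the longest transcript as a cross. Gpr132 is highest at 51.7 and Ptger2 lowest at 2.74, and the cross of Ptger4 stands at 15.7.

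S1pr1 varied between libraries together with some of the other listed genes of resting, recirculating T cells and not with others. The comparison of libraries was chosen after the values were seen. Klf2, which activates S1pr1, was at 38.1, 50.4 and 54.4 CPM in the WT and 31.5, 71.8 and 58.4 CPM in the KO libraries. Il7r, the interleukin-7 receptor chain, was at 48.9, 76.0 and 79.0 CPM and at 43.9, 101 and 124 CPM in the same order. Both were lowest in WT replicate 1 and KO replicate 4, as S1pr1 was. That pair held the lowest values for 8 of the 12 genes of the list (66.7%), against 15.7% of all tested genes. The list was drawn up from genes said to vary with S1pr1 in T cells, and S1pr1 itself was lowest in that pair. A higher share than over all genes was therefore partly built in and supports nothing here. Over the 6 libraries, which share 1 normalisation and hold both genotypes, log2 CPM of S1pr1 had a Pearson r of 0.95 with Klf2 (Spearman rho 0.94), 0.99 with Il7r (rho 1.0) and 0.91 with S1pr4 (rho 0.83). In the same list r with S1pr1 was 0.45 for Foxo1, 0.14 for Tcf7, 0.06 for Foxo3 and -0.19 for Bach2, factors that also act in resting T cells. Whether Klf2 had a part in the S1pr1 values was not tested. The r of S1pr1 with Ptger4 was -0.75 (rho -0.54) and with Gpr174 -0.01 (rho 0.14). Among the 9 members 4 were lowest in that pair (S1pr1, S1pr4, P2ry10 and Gpr132) and 1, Ptger4, was highest. The same pair held the highest values for 17.1% of all tested genes, so these libraries stood apart from the other 4 in either direction for many genes besides.

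**Figure D4:**
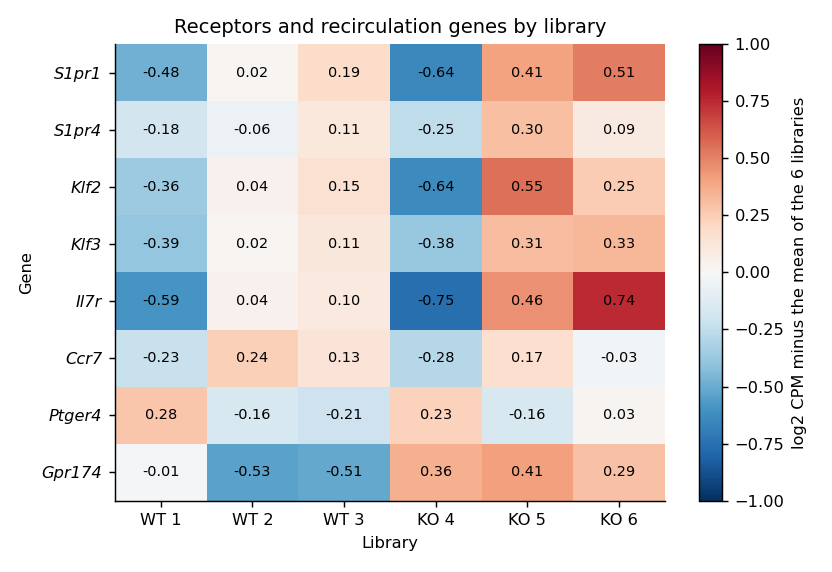
Log2 CPM of each gene (rows) in each library (columns) minus the mean of the 6 libraries, as colour and number. S1pr1, S1pr4, Klf2, Klf3, Il7r and Ccr7 are lowest in WT 1 and KO 4, Ptger4 is highest there, and Gpr174 is highest in the 3 KO libraries.

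The genes whose log2 CPM followed Gpr174 most closely over the 6 libraries, among 9640 other genes that averaged 5 CPM or more, were Phka2 (Pearson r 0.996, Spearman rho 0.94), Sin3a (0.994 and 0.89), Dnajc10 (0.994 and 1.0), Babam1 (0.994 and 1.0) and Qk (0.993 and 0.94). Their own log2 folds were small, from 0.07 for Qk to 0.15 for Phka2. For the other members the closest were Pik3ip1 with S1pr1 (r 0.996), Hn1l with Ptger4 (0.999), Slc25a53 with Gpr132 (0.996), Ubxn7 with P2ry10 (0.994), Fam71b with Gpr18 (0.994), Gpr19 with Gpr183 (0.993), Fam134c with S1pr4 (0.991) and Sos2 with Ptger2 (0.990). With 6 points and so many genes, values this high are a description of these libraries.

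Other receptors for the same or related lipids were not called. Of 35 listed, 34 had a row in the count table and 20 had enough reads to test, and edgeR called 0, with 2 genes up and 1 down at p under 0.05 before adjustment, and DESeq2 called 0. Over all tested genes 7.26% had an unadjusted p under 0.05, the share to set beside this and each list below. Gpr34, a further receptor for lysophosphatidylserine, had the smallest p. It was at 1.34, 1.34 and 1.51 CPM in WT and 2.03, 2.64 and 2.19 CPM in KO libraries, with a log2 fold of 0.71 (SE 0.17, edgeR adjusted p = 0.59). The KO libraries all lay above the WT libraries, as for 6.68% of all tested genes. Myeloid and B cells express Gpr34 too, and their part in this value was not tested. KO replicate 5, the highest for Gpr34, had the lowest myeloid sum, 38.6 CPM, and KO replicates 4 and 6 had 76.9 and 90.7 CPM. WT replicate 2, with the highest B cell sum of 99.4 CPM, read 1.34 CPM for Gpr34. Gpr65, a proton-sensing relative of Gpr132, was at 60.0, 84.4 and 75.6 CPM in WT and 58.9, 59.2 and 60.8 CPM in KO libraries, a log2 fold of -0.30 (SE 0.12, edgeR adjusted p = 0.67). Without WT replicate 1 edgeR called it lower, in a fit that called 119 of 15584 genes. The median log2 fold of the 20 was -0.05.

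The cells held few transcripts of the enzymes that make the oxysterol ligands. Ch25h, which starts the pathway, had 17, 17 and 17 counts in WT and 10, 5 and 11 counts in KO libraries, a log2 fold of -0.92 (SE 0.34, edgeR adjusted p = 0.65). Cyp7b1, which acts next, had 0 counts in all 6 libraries, which allows up to 0.0627 to 0.0722 CPM. Hsd11b1, a reductase that also acts on an oxysterol, stood at a log2 fold, KO over WT, of -0.35 (edgeR adjusted p = 0.79). Of 5 tested genes of this list edgeR called 0, with 1 lower at an unadjusted p under 0.05.

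Among 8 tested genes of prostaglandin E2 synthesis and transport edgeR called 0, with 1 lower at an unadjusted p under 0.05. That was Pla2g6, a phospholipase, at 28.2, 30.1 and 28.3 CPM in WT and 21.7, 26.0 and 24.3 CPM in KO libraries (log2 fold -0.26, edgeR adjusted p = 0.60). Ptgs2, the inducible cyclooxygenase, varied widely, at 5.57, 11.5 and 2.16 CPM in WT and 18.8, 2.55 and 16.3 CPM in KO libraries (log2 fold 0.97, SE 0.82, edgeR adjusted p = 0.79). Its 3 highest libraries, KO replicates 4 and 6 and WT replicate 2, were also those with the highest sums of the myeloid list, at 76.9, 90.7 and 61.3 CPM. The part of myeloid cells in this value was not tested.

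On the side of the lysophospholipids, 16 tested enzymes gave 0 calls by edgeR and 1 lower at an unadjusted p under 0.05. This was Pisd, which converts phosphatidylserine to phosphatidylethanolamine, at 27.6, 31.4 and 29.5 CPM in WT and 25.8, 24.9 and 24.9 CPM in KO libraries (log2 fold -0.23, SE 0.07, edgeR adjusted p = 0.60). Plpp3, a lipid phosphatase with at most 59 counts in a library, stood at a log2 fold of 1.37 (SE 0.70, edgeR adjusted p = 0.70). Its 3 highest libraries, KO replicates 6 and 4 and WT replicate 2, were those with the highest myeloid sums, whose part was not tested. Abhd12, the main hydrolase of lysophosphatidylserine, stood at a log2 fold, KO over WT, of 0.09 (edgeR adjusted p = 0.78) and was named after its values were seen. Of 16 tested genes of sphingosine phosphate metabolism edgeR called 0, and 0 had an unadjusted p under 0.05. The smallest p were those of the ceramidase Asah2 (log2 fold 0.63, edgeR adjusted p = 0.70) and the desaturase Degs1 (log2 fold -0.17, edgeR adjusted p = 0.71).

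Inside the cell, edgeR called 0 of 32 tested G protein subunits, cyclases and effectors, with 1 up and 2 down at p under 0.05 before adjustment. Gng2, a gamma subunit, was at 51.3, 66.9 and 63.4 CPM in WT and 51.9, 44.1 and 50.2 CPM in KO libraries (log2 fold -0.31, edgeR adjusted p = 0.63), and Gng5 stood at a log2 fold, KO over WT, of -0.16 (edgeR adjusted p = 0.65). Of 20 tested receptor kinases, arrestins, RGS proteins and partners it called 0, with 2 up and 2 down at that p. Rgs16, an inhibitor of G protein signalling induced on activation, was at 215, 326 and 262 CPM in WT and 185, 225 and 173 CPM in KO libraries (log2 fold -0.46, edgeR adjusted p = 0.63), with overlapping groups. Gpsm3, a modulator of G proteins, stood at a log2 fold, KO over WT, of 0.19 (edgeR adjusted p = 0.67). Cd69, which draws S1pr1 from the surface, was named after its values were seen. It was at 334, 395 and 327 CPM in WT and 325, 301 and 329 CPM in KO libraries (log2 fold -0.15, edgeR adjusted p = 0.71).

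Genes of the response to cyclic AMP, the messenger of Gpr174, Ptger2 and Ptger4, and of its breakdown made up a list with 22 tested members. EdgeR called 0, with 3 up and 1 down at p under 0.05 before adjustment, and the median log2 fold was -0.03. Pde3b, a phosphodiesterase that breaks down cyclic AMP, was at 165, 169 and 159.5 CPM in WT and 179.5, 219 and 211 CPM in KO libraries. The KO libraries all lay above the WT libraries, as for 6.68% of all tested genes (log2 fold 0.30, SE 0.08, edgeR adjusted p = 0.60). Creb1, the factor that binds cyclic AMP response elements, stood at a log2 fold of 0.14 (SE 0.05, edgeR adjusted p = 0.63). In the list of resting T cell genes edgeR called 0 of 12, with 1 higher at an unadjusted p under 0.05, Tcf7 (log2 fold 0.33, edgeR adjusted p = 0.60), and Bach2 came next (log2 fold 0.27, edgeR adjusted p = 0.70). Over all 9 lists, 151 related genes were tested and edgeR and DESeq2 each called 0. Before adjustment 18 of the 151 had a p under 0.05, 9 higher and 9 lower, where 7.26% of all tested genes did. The median log2 fold was 0.00.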

How the data were processed

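Total RNA from Trizol went into Illumina libraries, per the labels' protocols. The authors deposited raw read counts per gene, with 1 column per library and 0 columns left unused. The submitters' processing notes list mm10, HTSeq 0.9.1 and DESeq2 but no roles. The sources used here give no aligner, annotation or strand setting.

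Libraries were grouped by genotype as titled. Counts were fitted with the robust quasi-likelihood test of edgeR 4.0.16 (R 4.3.3) after filterByExpr and TMM scaling, Benjamini-Hochberg adjusted over 15186 genes, with 0.05 as the threshold. The SE of a log2 fold was derived from the fold and its F statistic. Levels per length used the exon union of GENCODE M21 (GRCm38, the mm10 assembly). The procedure was also run on counts simulated from its own fitted dispersions, with fold changes larger than those of the members. That run does not check how it performs on real counts or on folds as small as theirs. Named were all members, Map3k14, Xist, the 2 genes with the smallest p of each list without calls, and those most like a member (5 for Gpr174, 1 for each other member), apart from genes said to be named after their values were seen. A630033H20Rik, Cyp7b1 and the genes set beside S1pr1 between libraries were also named outside this rule. The members and lists were chosen with earlier results of these data known. Alternatives were other size factors (RLE, upper quartile) and filters (none, or 1 CPM in 3 libraries or more), limma-voom (limma 3.58.1), DESeq2 1.42.0, a term for sex, another gene length and each library left out. Sex was read from Xist and 4 Y-linked genes. Floors of 3 counts cover counting error only. The values of 1 listed gene are not reported here.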

Additional observations from a re-analysis of the deposited data

How the results depend on the processing

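The count of called genes was 1 with all libraries and 10 without a low-count filter, 89 in DESeq2, and from 1 to 119 with 1 library left out, the highest without WT replicate 1. Related genes called were 0, and from 0 to 1 with 1 library left out (Gpr65, without WT replicate 1). The members' log2 folds moved by less than their within-genotype SD in 117 of 117 alternatives. With 3 libraries per genotype, leaving 1 out can hardly move a fold that far, so this count does not show stability. The sign of Gpr132, S1pr4 and Ptger4 changed in 2, 1 and 3 of 13 alternatives, all with a library left out. Gpr174 ranged from 0.60 to 0.88 and its sign did not change in these 13. Levels per length moved by more than 1 SD in 2 of 81 alternatives, Ptger4 and Ptger2 with the longest transcript. Leaving out 1 of 6 libraries cannot move a mean by 1 SD, so those alternatives could not have counted as moved. With 3 libraries per genotype, a missed threshold does not show that a receptor was the same in both genotypes. No paired analysis was possible because no replicate number occurs in both genotypes.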
